A study of Sus scrofa with 24 samples.

Results

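Messenger RNA of 9 interferon-stimulated genes was examined in the hippocampus of 24 piglets. The genes were MX1, MX2, ISG15, IFIT1, IFIT2, IFIT3, RSAD2, OAS1 and OAS2, chosen by symbol from the 38882 genes with deposited counts. Piglets (PIC Camborough dam by PIC 359 sire) were small for gestational age (SGA) or appropriate for gestational age (AGA) and received a control formula (CON) or a hydrolyzed fat formula (HF), giving 4 groups with 6 piglets each (AGA CON, SGA CON, AGA HF, SGA HF). Tissue was taken at postnatal day 14. Each SGA piglet had a sex-matched AGA littermate on the same diet with the same replicate number, so the 24 libraries came from 12 litters, 6 on each diet. A difference between diets was therefore a difference between litters as well. Replicates 1 to 3 were raised in cohort 1 and replicates 4 to 6 in cohort 2.

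Interferons are secreted proteins that cells release on sensing viral nucleic acid. Type I interferon binds the IFNAR1 and IFNAR2 receptor, the kinases JAK1 and TYK2 are activated, and a transcription factor complex that contains IRF9 switches on interferon-stimulated genes. Interferon gamma acts through its own receptor on an overlapping set. In the brain, microglia, astrocytes, endothelium and neurons can all respond. The products block different steps of infection. MX1 and MX2 are GTPases that trap viral particles, ISG15 is a ubiquitin-like protein that is attached to other proteins, and the IFIT proteins bind foreign RNA. OAS1 and OAS2 make oligoadenylates that activate RNase L, and RSAD2 (viperin) makes a chain-terminating nucleotide.

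Libraries held 6017336 to 9284355 reads on the listed genes. Levels are given as CPM, the usual depth-scaled read count, with library sizes scaled by TMM, and 3 counts corresponded to 0.322 to 0.495 CPM. Neuronal markers were plentiful in every library (SLC17A7 from 1561 to 4894 CPM), and PROX1, a marker of dentate granule neurons, was present from 36.9 to 65.0 CPM. ZBTB20, also listed as a hippocampal marker, had 6 counts over all libraries. AGA CON replicate 2 had the lowest sum of neuronal markers, 2711 CPM where the median of its group was 5415 CPM. AGA HF replicate 4 was next, at 3438 CPM where the median of its group was 5185 CPM. The tests were also run without AGA CON replicate 2, a choice made after the data were seen. In whole tissue, fewer cells of a type and less RNA per cell cannot be told apart.

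Of the 9 genes, 8 passed the filter of at least 1 CPM in at least 3 libraries. MX2 (gene 396893, chromosome 13 from 215036188 to 215059001 in Sscrofa10.2) did not. It had 0 counts in 12 libraries and at most 5 counts in any. RSAD2 (gene 396752, chromosome 3 from 137666404 to 137683529) passed with 3 libraries, all of them from litters with replicate number 2, and it had 0 counts in 7 libraries. IFIT2 reached 1 CPM in 23 libraries and the other 6 genes in all 24.

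Per kilobase of exon, the median level over the 24 piglets was highest for MX1 at 26.6 CPM per kb (gene 397128, chromosome 13 from 214988890 to 215014780). ISG15 followed at 15.2 CPM per kb (gene 100145895, on an unplaced scaffold) and OAS2 at 12.3 CPM per kb (gene 595128, chromosome 14 from 41196297 to 41208970). IFIT3 (gene 100154248, chromosome 14 from 110209344 to 110210870) had 4.86 CPM per kb and OAS1 (gene 397570, chromosome 14 from 41260747 to 41268627) had 4.62 CPM per kb. IFIT1 (gene 100153038, chromosome 14 from 110223576 to 110235661) had 2.16 CPM per kb, IFIT2 (gene 100155467, chromosome 14 from 110179601 to 110190465) had 0.648 CPM per kb, and RSAD2 had 0.0888 CPM per kb. Neighbours in this order overlapped over piglets. The 3 IFIT genes lie side by side, as do OAS1 with OAS2 and MX1 with MX2, and reads aligning to more than one place were not counted, so levels of these related genes may be low where their sequences match.

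ISG15 differed most clearly between litters. In AGA CON piglets it was 67.4 CPM in replicate 2 and 16.8, 10.8, 12.3, 12.0 and 13.8 CPM in replicates 1, 3, 4, 5 and 6. In SGA CON piglets it was 53.8 CPM in replicate 2 and 13.0, 10.4, 12.0, 16.6 and 17.5 CPM in the others. Both littermates of the CON replicate 2 litter were above every other piglet. In the HF replicate 2 litter ISG15 was 27.9 CPM in the AGA piglet and 34.2 CPM in the SGA piglet, against 9.87 to 17.4 CPM in the other 5 AGA HF piglets and 6.77 to 13.6 CPM in the other 5 SGA HF piglets. These were the next highest values of the 24. Each of these litters was female and from cohort 1, and they were singled out with their values known.

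**Figure D1:**
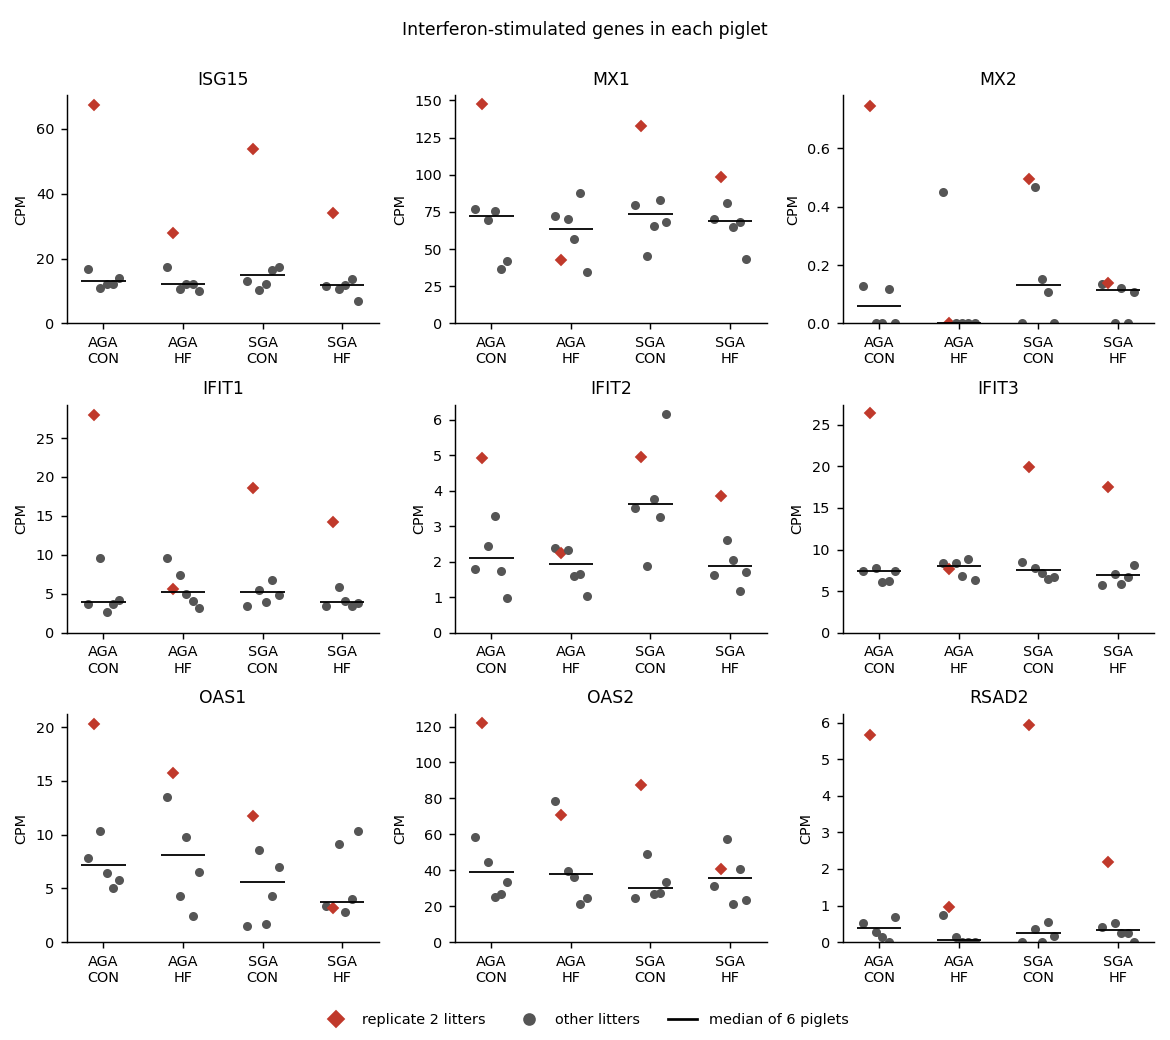
Level of each gene (CPM) in each piglet, by group, with diamonds for the replicate 2 litters, circles for the other litters and a line at the median of 6 piglets. ISG15 was 67.4 and 53.8 CPM in the CON replicate 2 littermates and 6.77 to 17.5 CPM in the 20 piglets of other replicate numbers.

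The RNA-binding IFIT1 and IFIT3 had the same high litter. IFIT1 was 28.01 CPM in AGA CON replicate 2 and 18.6 CPM in SGA CON replicate 2, against 2.64 to 9.62 CPM in the other 5 AGA CON piglets and 3.39 to 6.75 CPM in the other 5 SGA CON piglets. IFIT3 was 26.4 and 19.97 CPM in these littermates, against 6.06 to 7.72 CPM and 6.43 to 8.53 CPM. Neither gene overlapped between these littermates and the remaining 22 piglets. The HF replicate 2 littermates differed from each other, since SGA HF replicate 2 had 14.2 CPM of IFIT1 and 17.5 CPM of IFIT3 while AGA HF replicate 2 had 5.61 and 7.70 CPM, inside the range of its group. IFIT2 behaved otherwise. It was 4.92 and 4.95 CPM in the CON replicate 2 littermates, and the highest IFIT2 level, 6.17 CPM, was in SGA CON replicate 6.

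MX1 was 148 CPM in AGA CON replicate 2 and 133 CPM in SGA CON replicate 2, against 36.8 to 76.9 CPM and 45.1 to 83.2 CPM in the other 5 piglets of each group. SGA HF replicate 2 had 98.2 CPM, the highest of its group, while AGA HF replicate 2 had 42.3 CPM, below the group median of 63.6 CPM. RSAD2 was 5.66 CPM (38 counts) and 5.94 CPM (36 counts) in the CON replicate 2 littermates, 2.20 CPM (16 counts) in SGA HF replicate 2 and 0.962 CPM (6 counts) in AGA HF replicate 2. No other piglet had more than 5 counts of RSAD2. MX2 had 5 and 3 counts in the CON replicate 2 littermates, and these few counts do not separate it from SGA CON replicate 3, which had 4.

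The oligoadenylate synthetases varied more among all litters. OAS2 was 122 CPM in AGA CON replicate 2 and 87.5 CPM in SGA CON replicate 2, while other AGA CON piglets reached 58.6 CPM and AGA HF replicate 1 had 78.7 CPM. OAS1 was 20.3 CPM in AGA CON replicate 2 and 11.7 CPM in its SGA littermate, which AGA HF replicates 1 (13.5 CPM) and 2 (15.7 CPM) exceeded. In the HF replicate 2 litter OAS1 and OAS2 were higher in the AGA piglet (15.7 and 70.9 CPM) than in the SGA piglet (3.17 and 40.9 CPM), the opposite order from IFIT1, IFIT3 and MX1.

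**Figure D2:**
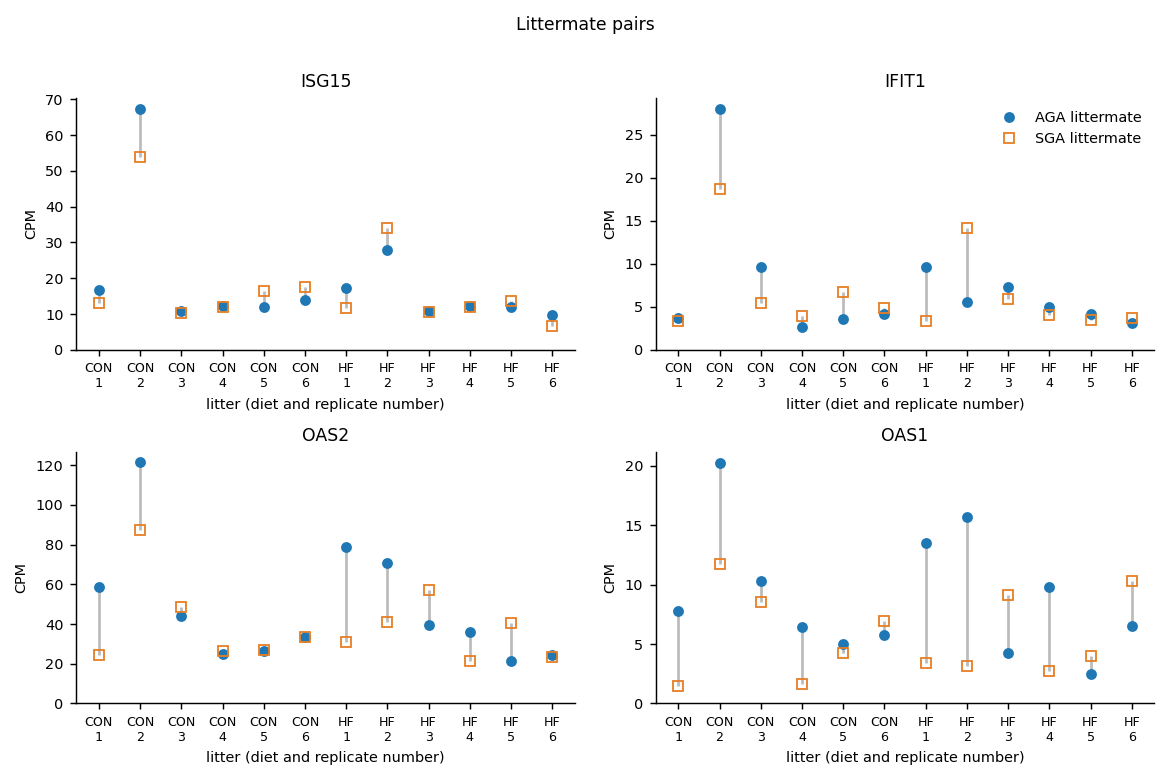
Level (CPM) of ISG15, IFIT1, OAS2 and OAS1 in the AGA (filled circle) and SGA (open square) piglet of each of 12 litters, joined by a line, with diet and replicate number below. ISG15 littermates lay close together in the CON replicate 2 litter (67.4 and 53.8 CPM) while OAS1 littermates were far apart in the HF replicate 2 litter (15.7 and 3.17 CPM).

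Counted over the 8 tested genes, AGA CON replicate 2 was the highest of its group for 8, SGA CON replicate 2 for 7, SGA HF replicate 2 for 6 and AGA HF replicate 2 for 3. Over all 16326 genes tested, the same libraries were highest of their group for 26.0%, 15.2%, 14.5% and 19.2% of genes. Both CON replicate 2 littermates exceeded all other 22 piglets for 6 of the 8 genes (MX1, ISG15, IFIT1, IFIT3, RSAD2 and OAS2), and for 1.65% of all genes tested. All 4 replicate 2 piglets exceeded the other 20 for ISG15 and RSAD2, and for 0.172% of all genes tested. RSAD2 reached the filter only through replicate 2 libraries, so its part in these counts carries no weight. These counts describe litters chosen for their levels and carry no test.

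Whether litters of the same diet differed was tested for every gene with a quasi-likelihood F test in edgeR on 10 litter terms, which compares the spread between litters with the spread between littermates. Across all genes, 117 of 16326 (0.717%) had an FDR-adjusted p under 0.05. ISG15 (adjusted p = 1.04e-05), IFIT1 (adjusted p = 0.0229) and IFIT3 (adjusted p = 0.0250) were among them, 3 of the 7 genes that reached 1 CPM in at least 23 libraries. RSAD2 also passed (adjusted p = 0.0229), but it entered the test only through replicate 2 libraries, so its call carries no weight. OAS2 (adjusted p = 0.0746), MX1 (0.229), OAS1 (0.566) and IFIT2 (0.661) did not pass. Without the replicate 2 litters 0 of 7 genes passed, where 0.261% of all genes did, and none had an unadjusted p under 0.05 (ISG15 adjusted p = 0.538). Without the CON replicate 2 litter alone ISG15 passed (adjusted p = 0.0193), as it did without the single library AGA CON replicate 2 (adjusted p = 0.000999), while IFIT1 and IFIT3 did not pass in either case. Of all genes, 0.345% and 0.424% passed in these fits. When litters were compared within diet, sex and cohort, ISG15 alone of the 8 passed (adjusted p = 0.00684). Only 0.0919% of all genes passed that test.

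The design addressed whether birth size and formula changed expression. None of the 8 tested genes was called in any of 7 contrasts at FDR p under 0.4, adjusted over all genes and contrasts in edgeR. The study chose this wide threshold for its heat map. At FDR p under 0.4, 0.876% of all genes were called for SGA against AGA, 0.294% for HF against CON and 0.123% for their interaction. For single groups the shares were 0.257% for SGA CON against AGA CON, 0.594% for SGA HF against AGA HF, 0.178% for AGA HF against AGA CON and 0.184% for SGA HF against SGA CON. DESeq2 and limma voom called 0 of the 8 as well. In edgeR, 4 of 56 pairs of a gene and a contrast had an unadjusted p under 0.05, a share close to the 6.77% over all genes and contrasts. Under an adjusted p of 0.05 no interferon-stimulated gene and at most 1 gene of any kind was called per contrast. Surrogate variables, terms that absorb unexplained structure in the data, accounted for 76.6% of the variance of the genes' mean standardized level, and 0 of the 8 genes was called in the fit without them too.

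For size, 4 of the 8 genes were higher and 4 lower in SGA piglets. OAS1 had the largest difference, at 5.62 ± 3.54 CPM (SD, n = 12) in SGA against 8.98 ± 5.22 CPM (SD, n = 12) in AGA piglets. Its fitted log2 fold change was -0.67 with a standard error of 0.322 and did not pass adjustment (edgeR adjusted p = 0.734, unadjusted 0.0481). It was lower in the SGA piglet of 8 of 12 litters, and without AGA CON replicate 2 the log2 fold change was -0.70 (edgeR adjusted p = 0.640, unadjusted 0.0567). ISG15 was 17.7 ± 13.3 CPM (SD, n = 12) in SGA against 18.6 ± 16.1 CPM (SD, n = 12) in AGA piglets, and its fitted log2 fold change was -0.09 with a standard error of 0.202. Within the CON diet, mean OAS2 was 41.3 ± 24.3 CPM for SGA piglets against 51.7 ± 36.6 CPM for AGA piglets (SD, n = 6 each), and 32.1 ± 9.94 against 37.6 ± 13.99 CPM (SD, n = 5 each) without the replicate 2 litter. Its fitted log2 fold change was -0.47 (standard error 0.224, edgeR adjusted p = 0.735, unadjusted 0.0492). Without AGA CON replicate 2 alone it was -0.24 (edgeR adjusted p = 0.860, unadjusted 0.317), without the whole CON replicate 2 litter -0.46, and without both replicate 1 litters -0.20. The median log2 fold change in this contrast went from -0.11 over 8 genes to 0.12 over the 7 tested without AGA CON replicate 2.

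For diet, 6 of the 8 genes were lower in HF piglets in the fit with surrogate variables, with a median log2 fold change of -0.25 where the median over all genes was 0.00. IFIT2 had the largest difference, 2.02 ± 0.752 CPM (SD, n = 12) on HF and 3.23 ± 1.56 CPM (SD, n = 12) on CON, a log2 fold change of -0.65 (standard error 0.226, edgeR adjusted p = 0.568, unadjusted 0.00845). In SGA piglets alone its log2 fold change was -0.77 (standard error 0.298, edgeR adjusted p = 0.631). The diet tests over both sizes treated littermates, which shared a diet, as independent. With littermates summed and no surrogate variables, 8 of the 8 genes were lower on HF (median -0.31). None of them, and 0 of all genes, was called in that fit. Without surrogate variables 8 of the 8 genes were lower on HF, with a median of -0.31. In the fit with them the direction of the median rested on few litters. Without the CON replicate 2 litter it was 0.04, without AGA CON replicate 2 alone 0.00, without both replicate 2 litters 0.06 and without both replicate 6 litters 0.04. ISG15 was 21.4 ± 18.7 CPM (SD, n = 12) on CON and 14.9 ± 8.03 CPM (SD, n = 12) on HF, and 13.5 ± 2.56 CPM and 11.7 ± 2.71 CPM (SD, n = 10 each) without the replicate 2 litters. Its log2 fold change of -0.25 (standard error 0.193) became 0.10 without the CON replicate 2 litter, a fit that kept the high HF replicate 2 litter.

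**Figure D3:**
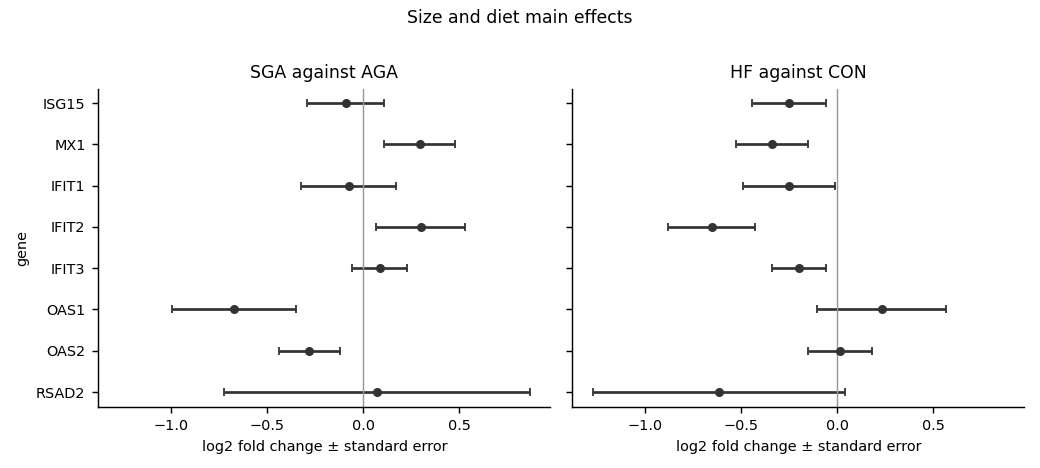
Log2 fold change with its standard error for the 8 tested genes, for SGA against AGA piglets and for HF against CON piglets, from the fit with sex and surrogate variables. Standard error bars crossed 0 for 4 genes for size (ISG15, IFIT1, IFIT3 and RSAD2) and for 3 genes for diet (OAS1, OAS2 and RSAD2), and IFIT2 had the lowest value for diet (-0.65).

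The 8 genes were less alike without these litters. Across 24 libraries the Pearson correlation of each gene with the mean standardized level of the other 7 was highest for IFIT1 (0.898), RSAD2 (0.884) and ISG15 (0.876), and lowest for IFIT2 (0.542) and OAS1 (0.415). Over the 20 libraries without replicate 2 it was 0.659, 0.522, 0.391, 0.208 and 0.229. OAS1 and OAS2 kept a correlation of 0.617 (0.729 over 24), whereas ISG15 and IFIT3 went from 0.829 to -0.11. Libraries shared litters and depth, so these are descriptions.

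Among 12354 other tested genes with a symbol, the 10 with levels most like the mean of the 8 across 24 libraries were DDX60 (r = 0.924), IRF9 (0.910), IFI44 (0.894), ISG12(A) (0.892), USP18 (0.889), HERC5 (0.880), HERC6 (0.879), DHX58 (0.871), IFITM1 (0.861) and UBA7 (0.850). UBA7 activates ISG15, HERC5 and HERC6 belong to the ligase family that attaches it, and USP18 removes it. Of these 10, 2 stayed in the top 10 by Spearman correlation and 1 without the replicate 2 litters.

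A wider list of other interferon-stimulated genes gave 44 tested genes, and 16 of them passed the test among litters, against 0.717% of all genes. CXCL9 and DDX60 were among the 16 but would not have reached the filter without the replicate 2 libraries, so their calls carry no weight. Of the other 40 tested genes 14 passed, against 0.664% of all genes that reached the filter without those libraries. With at least 1 CPM required in 6 libraries 14 of 39 passed, without the replicate 2 litters 0 of 40, and within diet, sex and cohort 2 of 44 (DHX58 and IRF9). Of all genes, 0.681%, 0.261% and 0.0919% passed in these settings. Summed over the 48 matched genes of the list, tested or not, the CON replicate 2 littermates had 1297 and 1206 CPM. SGA CON replicate 6 followed with 991 CPM, above the HF replicate 2 littermates (849 and 934 CPM). DHX58, which regulates RNA sensing, was 38.1 and 38.9 CPM in the CON replicate 2 littermates and 14.4 and 22.03 CPM in the AGA and SGA piglets of the HF replicate 2 litter, above the other 20 piglets. IRF9 was 166 and 167 CPM in the CON littermates and 93.3 and 112 CPM in the HF littermates, where the median over all piglets was 61.6 CPM. The chemokine CXCL10, which attracts activated T cells, was 37.7 and 18.5 CPM in the AGA and SGA piglets of the CON replicate 2 litter and 12.7 and 11.98 CPM in those of the HF replicate 2 litter, or 16.4, 11.3, 9.81 and 7.67 times the median of the other 5 piglets of the group. CXCL9, a related chemokine, was 9.54, 7.59, 4.17 and 2.75 CPM in the same piglets, while the median of the other 5 piglets was 0 in every group. In the contrast of SGA HF with AGA HF 1 of these 44 genes was called, where 0.594% of all genes were, and in the other six contrasts none was. A single call does not set the list apart from other genes. The gene was ADAR, an RNA-editing enzyme, at 157 ± 13.04 CPM (SD, n = 6) in the AGA HF group and 187 ± 15.1 CPM (SD, n = 6) in the SGA HF group. Its fitted log2 fold change was 0.24 with a standard error of 0.0616 (edgeR adjusted p = 0.352).

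**Figure D4:**
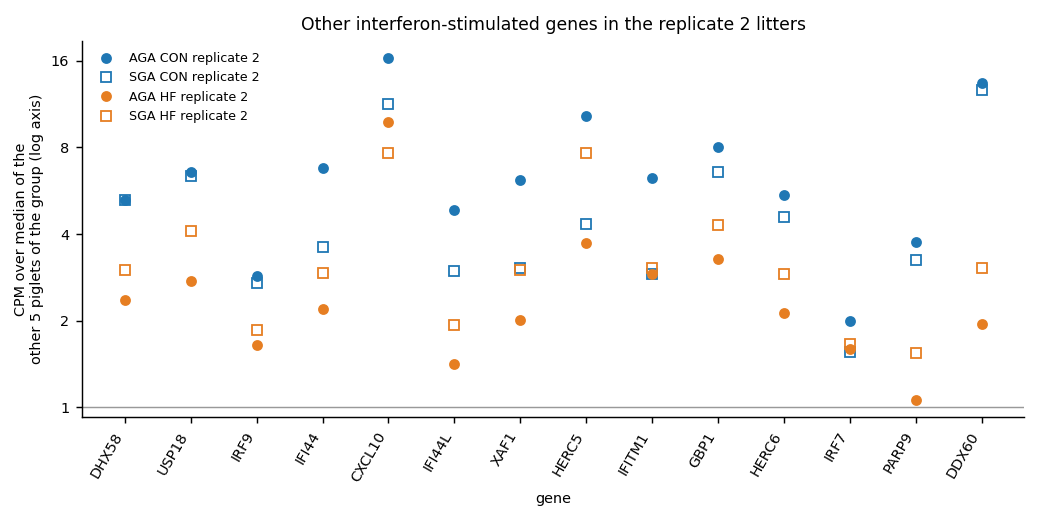
Level in each replicate 2 piglet divided by the median of the other 5 piglets of its group (log axis), for 14 of the other interferon-stimulated genes that passed the test among litters. Some were left out, among them CXCL9, for which that median was 0. The genes were picked by that test, which none passed without the replicate 2 litters, so high ratios here are no separate result. DDX60 is shown although it reached the filter only through replicate 2 libraries. CXCL10 ratios ran from 7.67 to 16.4 and those of IRF7 from 1.56 to 2.00.

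The interferons themselves were hardly detected. Of 34 interferon genes matched, 0 passed the filter, and their summed level was at most 0.33 CPM in any library. IFNG had 3 counts, IFNB1 had 1 and IFNE had 7 over all libraries. Among the receptor and signalling genes, IRF9 passed the test among litters (edgeR adjusted p = 0.000124). Of 13 tested genes that sense nucleic acid or signal from its sensors, 2 passed, DHX58 and IRF7. IRF9, DHX58 and IRF7 were already counted among the 16 genes of the wider list, and 0.717% of all genes passed. Of 8 tested antigen presentation genes, PSME1, a proteasome activator subunit, passed (edgeR adjusted p = 0.0355), and TAP1, PSMB8 and PSMB9 were listed at 0 in every library. Whether TAP1, PSMB8 and PSMB9 were not expressed, or their reads were not counted, was not tested. The summed level of the 12 matched genes was nonetheless the highest of its group in all 4 replicate 2 piglets, at 334.7 CPM in AGA CON, 399.6 CPM in SGA CON, 292.6 CPM in AGA HF and 279.4 CPM in SGA HF, where group medians were 223.7 to 264.5 CPM. Of the 8 tested genes, 8, 5, 6 and 5 were highest in these piglets. SGA CON replicate 6 also summed high, at 361.2 CPM, above AGA CON, AGA HF and SGA HF replicate 2. Outside the list, and chosen after their values were seen, the class I genes SLA-1 (edgeR adjusted p = 0.000325) and SLA-3 (adjusted p = 8.89e-05) passed the test among litters. SLA-1 was 722 and 1082 CPM in the CON replicate 2 littermates, 459 CPM in AGA HF replicate 2 and 241 CPM in SGA HF replicate 2, against at most 363 CPM in the other 20 piglets. Class I genes are near copies of each other, so how their reads were split between them is uncertain.

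Markers of other cells moved with the replicate 2 litters in part. The summed level of 6 T cell markers was the highest of its group in all 4 of these piglets, 14.3 CPM in AGA CON, 10.4 CPM in SGA CON, 4.65 CPM in AGA HF and 6.06 CPM in SGA HF, where group medians were 2.28 to 3.04 CPM. CD3E, part of the T cell receptor complex, was 4.77, 3.14, 1.12 and 1.24 CPM, but it was also 2.58 CPM in SGA CON replicate 3. CD3D was at 0 in 3 of the 4 piglets, and 0 of 4 tested T cell markers passed the test among litters. Markers of microglia, the resident immune cells of the brain, summed to 358 CPM in AGA CON replicate 2, the highest of its group, but to 183, 181 and 174 CPM in SGA CON, AGA HF and SGA HF replicate 2, below their group medians of 239, 190 and 189 CPM. Endothelial markers summed to 262, 217 and 183 CPM in AGA CON, SGA CON and SGA HF replicate 2, each the highest of its group. In AGA HF replicate 2 the sum was 172 CPM, where the group median was 164 CPM. Of 4 tested genes, 4 were highest in AGA CON, 1 in SGA CON, 2 in SGA HF and 0 in AGA HF replicate 2. Of these genes only FLT1, a receptor for vascular growth factor, passed the test among litters (edgeR adjusted p = 0.0120). Astrocyte markers summed to 11117 CPM in AGA CON replicate 2, where all 4 genes were the highest of the group, and to 8524 CPM in its SGA littermate, where 1 of 4 was. Both sums were the highest of their group (medians 8939 and 7914 CPM), while those of AGA HF and SGA HF replicate 2, 6824 and 7677 CPM, were below their medians of 7552 and 8208 CPM. None of the 4 astrocyte markers passed the test among litters (0 of 4). B cell and choroid plexus markers were the highest of their group in AGA CON replicate 2 only (10.1 and 86.9 CPM), and meningeal markers in SGA HF replicate 2 only (94.5 CPM). Granulocyte and monocyte markers were not the highest of their group in any of the 4 piglets, nor were red cell markers. The part of these cells in the levels of interferon-stimulated genes was not tested.

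**Figure D5:**
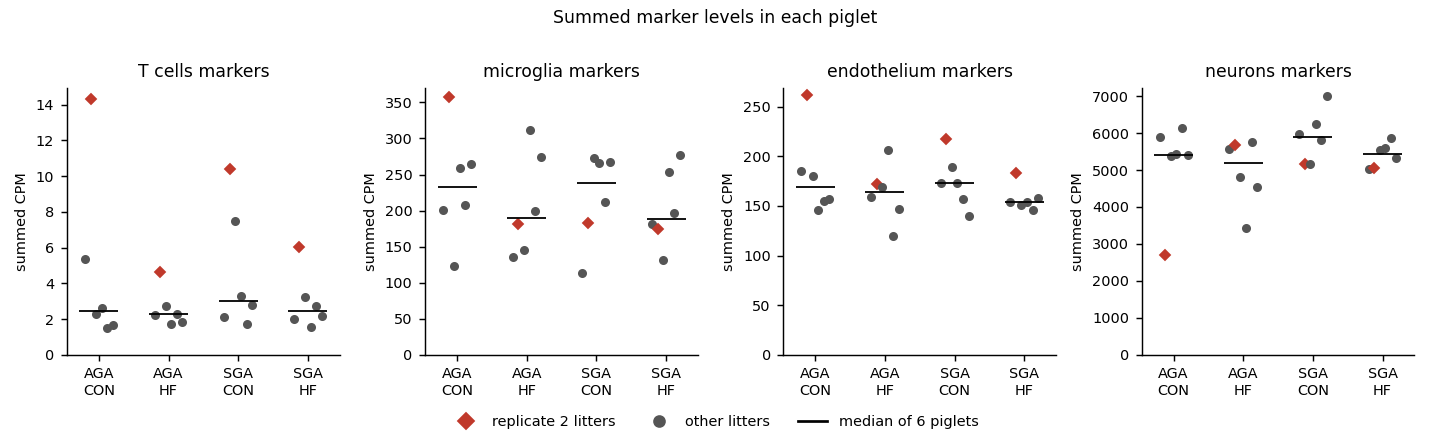
Summed CPM of T cell, microglia, endothelium and neuron markers in each piglet, by group, with diamonds for the replicate 2 litters and a line at the median of 6 piglets. T cell markers were highest in the replicate 2 piglet of each group (4.65 to 14.3 CPM), and neuron markers were lowest in AGA CON replicate 2 (2711 CPM).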

How the data were processed

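Raw counts per gene were deposited by the authors for 24 hippocampal libraries, 1 per piglet. Per the labels and the study's methods, stranded polyA libraries were trimmed with Trimmomatic (version 0.33), aligned to Sscrofa10.2 with STAR (version 2.5.2a) and counted over exons with featureCounts (Subread version 1.5.0). An entry with no gene name, holding 0.613% to 1.62% of reads, was left out. Of 38882 genes, 23036 matched a RefSeq table of Sscrofa11.1, used for names only. Members, gene lists and tests were chosen with earlier results of these data known.

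CPM and tests were computed in R (4.3.3) with edgeR (4.0.16): TMM on all genes, then a filter keeping the 16326 genes that reached 1 CPM in 3 or more libraries, a quasi-likelihood fit of the 4 groups, sex and 5 surrogate variables (sva 3.50.0 on log2 CPM, prior count 2), and Benjamini-Hochberg adjustment over all genes and 7 contrasts. Standard errors are the log2 fold change divided by the square root of F. Litters were tested in a model of 12 litters and size within diet. The size contrast and the test among litters within diet were checked on simulated counts, while the other tests were not. Labels pair littermates, and their deviations from group means correlated at 0.0143 to 0.329 (mean 0.154), above 0.1 in 9 of 12 pairs. Replicates within groups differed by more than sampling noise. Named genes were all members, the 10 genes most correlated with them, and, per list, those with the smallest p among litters; results of some genes are not reported here.

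Alternatives were DESeq2 (1.42.0), limma (3.58.1) voom, other filters, scalings and adjustments, litter blocks, single cohorts and left-out libraries.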

Additional observations from a re-analysis of the deposited data

Results flagged for a closer look

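In each group of 6 piglets, the highest or lowest level of each gene was compared with its nearest neighbour (gap over range above Dixon's 95% critical value for 6 values). Of 36 sets of a gene and a group, 17 passed, where chance gives about 1 in 20, and 16 of the 17 were the highest value in a replicate 2 piglet. For the 8 tested genes 15 of 32 sets passed, all highest in a replicate 2 piglet, while over all tested genes 8.28% of sets passed and 1.59% did so with a replicate 2 piglet highest. MX2, at 3 to 5 counts, makes up the other two. Genes and groups share piglets, so these are not independent. RSAD2 is among the 8 genes but reached the filter only through replicate 2 libraries, so its sets carry no weight. The replicate 2 litters were singled out with their values known, so these counts describe them and carry no test. AGA CON replicate 2 stood apart for MX1 (148 CPM), MX2 (0.745 CPM, 5 counts), ISG15 (67.4 CPM), IFIT1 (28.01 CPM), IFIT3 (26.4 CPM), RSAD2 (5.66 CPM), OAS1 (20.3 CPM) and OAS2 (122 CPM). SGA CON replicate 2 stood apart for ISG15 (53.8 CPM), IFIT1 (18.6 CPM), IFIT3 (19.97 CPM) and RSAD2 (5.94 CPM). SGA HF replicate 2 stood apart for ISG15 (34.2 CPM), IFIT1 (14.2 CPM), IFIT3 (17.5 CPM) and RSAD2 (2.20 CPM). The remaining one was MX2 in AGA HF replicate 1 (0.449 CPM, 3 counts), where the other 5 piglets had 0 counts.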

How the results depend on the processing

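The count of interferon-stimulated genes called in each of the 7 contrasts was 0 under every one of the 23 alternatives except 1, SGA HF against SGA CON without replicate 3, where 1 gene (IFIT2, log2 fold change -0.98, adjusted p = 0.384) was called. In that fit 102 of all 16156 genes tested were called for the same contrast. Leaving out replicates gave 0 to 1 for that contrast. With each litter as a replicate block 0 members were called for size, the interaction and both SGA against AGA contrasts, and with littermates summed 0 for diet; diet cannot be estimated beside a litter block. The number of litter differences called (4) was 1 within diet, sex and cohort, 7 with no filter beyond 1 count, where 7.89% of all genes were called, and 0 to 5 when litters or AGA CON replicate 2 were left out (0 without replicate 2, 1 without CON replicate 2 and 1 without AGA CON replicate 2, 2 without replicate 5). Of all genes, 0.717% were called in the main fit, 0.0919% within diet, sex and cohort and 0.261% without replicate 2. The share was 0.345% without CON replicate 2, 0.424% without AGA CON replicate 2 and 0.327% without replicate 5. The cause of the change without a filter was not tested. When litters or AGA CON replicate 2 were left out, the median log2 fold change for diet ran from -0.47 to 0.065 (0.065 without replicate 2, 0.040 without replicate 6, 0.039 without CON replicate 2 and 0.0043 without AGA CON replicate 2), and that of ISG15 for diet from -0.55 to 0.10 (0.10 without CON replicate 2). In cohort 2 alone ISG15 for size was 0.083 and OAS2 for SGA CON against AGA CON was 0.032. Counts over all genes moved more than those of the members. For size, 143 genes were called with TMM on all genes, 78 with TMM on the filtered genes, 157 with robust estimates, 104 with both, 203 by DESeq2, 96 by voom, 45 without a filter, 10 without surrogate variables, 395 with the litter block and 11 to 488 when litters or AGA CON replicate 2 were left out. For diet, 48 became 26, 49, 31, 83, 19, 11, 0 and, with littermates summed, 0, and 11 to 452 when litters or AGA CON replicate 2 were left out. TMM on the filtered genes, robust estimates and leaving out AGA CON replicate 2 were chosen after seeing the data. Depth limits MX2 and the interferon genes, which stayed near or below 3 counts per library.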
